A study of Mus musculus with 24 samples.

Results

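Tnf and 9 genes of the NF-kappaB pathway were followed through the myeloid cells of the mouse colon. They are the cytokine gene Tnf, the TNF-induced genes Tnfaip2 and Tnfaip3, the inhibitor genes Nfkbia and Nfkbiz, and the 5 genes of the NF-kappaB subunits, Nfkb1, Nfkb2, Rel, Rela and Relb. They were taken by symbol, and are 10 of the 17301 genes with an expression value. Monocytes (Ly6Chi MHCII-), neutrophils (Ly6Ghi), and macrophages with high or low MHCII (F4/80hi MHCIIhi and F4/80hi MHCIIlow) were sorted from 2 sources, the lamina propria (LP) of the colon in C57BL/6J mice and tumours of the colon in Apc Min/+ mice. That gave 8 groups of 3 RNA-seq libraries, 24 in all.

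Apc Min/+ mice carry a truncating allele of the tumour suppressor Apc and form intestinal adenomas. The study's methods state that these mice and the C57BL/6J controls both received dextran sodium sulphate (DSS), which injures the colon lining, for 1 week by drinking, with analysis 4 weeks after that, at 3 to 4 months of age. The labels call the control tissue healthy, and tumour tissue of one genotype was set against LP of another. The methods give a different DSS concentration for each genotype, so that tissue, genotype and DSS dose cannot be told apart. Each library came from the pooled cells of 13 to 15 mice, so a p-value measures the spread between pools. LP passed through 1 h in EDTA and 1.5 h in collagenase, whereas tumours were digested for 1 h in collagenase with DNase, and the part of this difference in the results was not tested.

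Tumour necrosis factor is a cytokine of activated myeloid cells, and its receptors switch on NF-kappaB. NF-kappaB is a family of dimers of RelA, RelB, c-Rel and the DNA-binding products of Nfkb1 and Nfkb2, held in the cytoplasm by IkappaB proteins until these are degraded. Many of its target genes, Nfkbia and Tnfaip3 among them, encode inhibitors that shut the pathway down again, and in the gut the pathway is known for its place in inflammation and in tumours that follow it.

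The libraries held 12.8 to 41.7 M reads on genes, with a median of 26.4 M, and every one of the 10 genes had 1349 to 119687 reads in every library. Macrophage markers were high in the 4 macrophage groups, where 10 genes summed to 4840 to 8415 RPKM (reads per kilobase of gene, scaled by the size of the library) against 606.5 to 1301 elsewhere. The 10 neutrophil markers summed to 12641 to 37865 RPKM in neutrophils and to at most 691.5 elsewhere. The 9 monocyte markers were at 1171 to 4043 RPKM in monocytes, but reached 680.8 to 1330 in neutrophils too, and the macrophage library of MHCIIlow pool II from LP stood apart at 460.1 against 151.7 and 167.6 in its group. In these bulk libraries a change in the mix of cells and a change of RNA per cell cannot be told apart.

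The promoters of the genes are shown here because the pathway regulates several of its own members. RefSeq promoter sequences (build GRCm38.p6) were matched for 7 of the 10 genes, Tnf, Tnfaip2, Tnfaip3, Nfkbia, Nfkb2, Rel and Rela, and the 250 bases before the start of transcription were searched on both strands, overlaps included, for the kappaB consensus, the DNA sequence that NF-kappaB dimers recognise. It was present in 4 of the 7, Tnfaip3, Nfkbia, Nfkb2 and Rel, whereas 4.46% of 27025 genes with a promoter held it. Tnfaip3 had 2 promoters in the table, at different starts, and Nfkb2 had 3, and all were searched. Nfkbiz, Nfkb1 and Relb were not matched. Sequences run from 5′ to 3′ on the gene's own strand, and capitals mark matches to the consensus, overlapping ones merged.
Nfkbia promoter, chr12:55492648-55492897, minus strand: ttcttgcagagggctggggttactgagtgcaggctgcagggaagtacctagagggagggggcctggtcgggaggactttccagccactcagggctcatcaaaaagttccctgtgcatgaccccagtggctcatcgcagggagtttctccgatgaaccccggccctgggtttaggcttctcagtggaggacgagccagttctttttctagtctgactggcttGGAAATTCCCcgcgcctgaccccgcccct
Rel promoter, chr11:23770970-23771219, minus strand: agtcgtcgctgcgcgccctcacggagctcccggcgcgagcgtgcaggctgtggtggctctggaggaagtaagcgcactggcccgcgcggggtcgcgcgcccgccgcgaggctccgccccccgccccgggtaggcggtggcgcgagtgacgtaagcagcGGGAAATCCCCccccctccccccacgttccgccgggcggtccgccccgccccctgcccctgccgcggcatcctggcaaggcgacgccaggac

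For Tnfaip3 and Nfkb2 the annotated gene already covers part of these positions, so only the 30 bases around each match are given, overlapping matches counted as 1 and the named one in capitals. Both Tnfaip3 matches lie in its first promoter, and the other Tnfaip3 promoter holds none.
Tnfaip3 first match, chr10:19015516-19015545, minus strand: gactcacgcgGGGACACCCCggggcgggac
Tnfaip3 second match, chr10:19015411-19015440, minus strand: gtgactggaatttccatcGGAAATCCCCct
Nfkb2 promoter 1, first match, chr19:46304688-46304717, plus strand: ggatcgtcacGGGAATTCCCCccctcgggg
Nfkb2 promoter 1, second match, chr19:46304707-46304736, plus strand: ccccctcggggggccgaaaGGGGCTTTCCc
Nfkb2 promoter 2, chr19:46305449-46305478, plus strand: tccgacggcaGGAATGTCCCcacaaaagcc
Nfkb2 promoter 3, chr19:46305695-46305724, plus strand: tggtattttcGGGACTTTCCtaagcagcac
The Nfkbia match lies 20 to 29 bases before the start and the first of Rel 83 to 92 bases before it. A match describes the letters only, and no binding was measured. Of the 4 genes with a match, Tnfaip3, Nfkbia and Rel were called higher in tumour than in LP neutrophils and Nfkb2 was not. Of the 3 with a matched promoter and no match to the consensus, Tnf was called higher and Tnfaip2 and Rela were not. Over all genes tested 13.1% were called higher there, and with 7 genes no relation between match and change was tested.

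The level of each gene is given in log2 RPKM, and differences are log2 fold changes of tumour over LP or of the first group named over the second. They were tested with limma over the 12878 genes with a mean of at least 1 RPKM in 1 group or more, and a gene is called changed at a Benjamini-Hochberg adjusted p below 0.05. In deposited values tumour neutrophils had the highest mean of all 8 groups for 9 of the 10 genes, and LP neutrophils for Rela. A macrophage group had the lowest mean for 9 of the 10, and LP monocytes for Tnfaip2. Nfkb1 was called lower in both tumour macrophage populations and higher in tumour neutrophils.

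**Figure D1:**
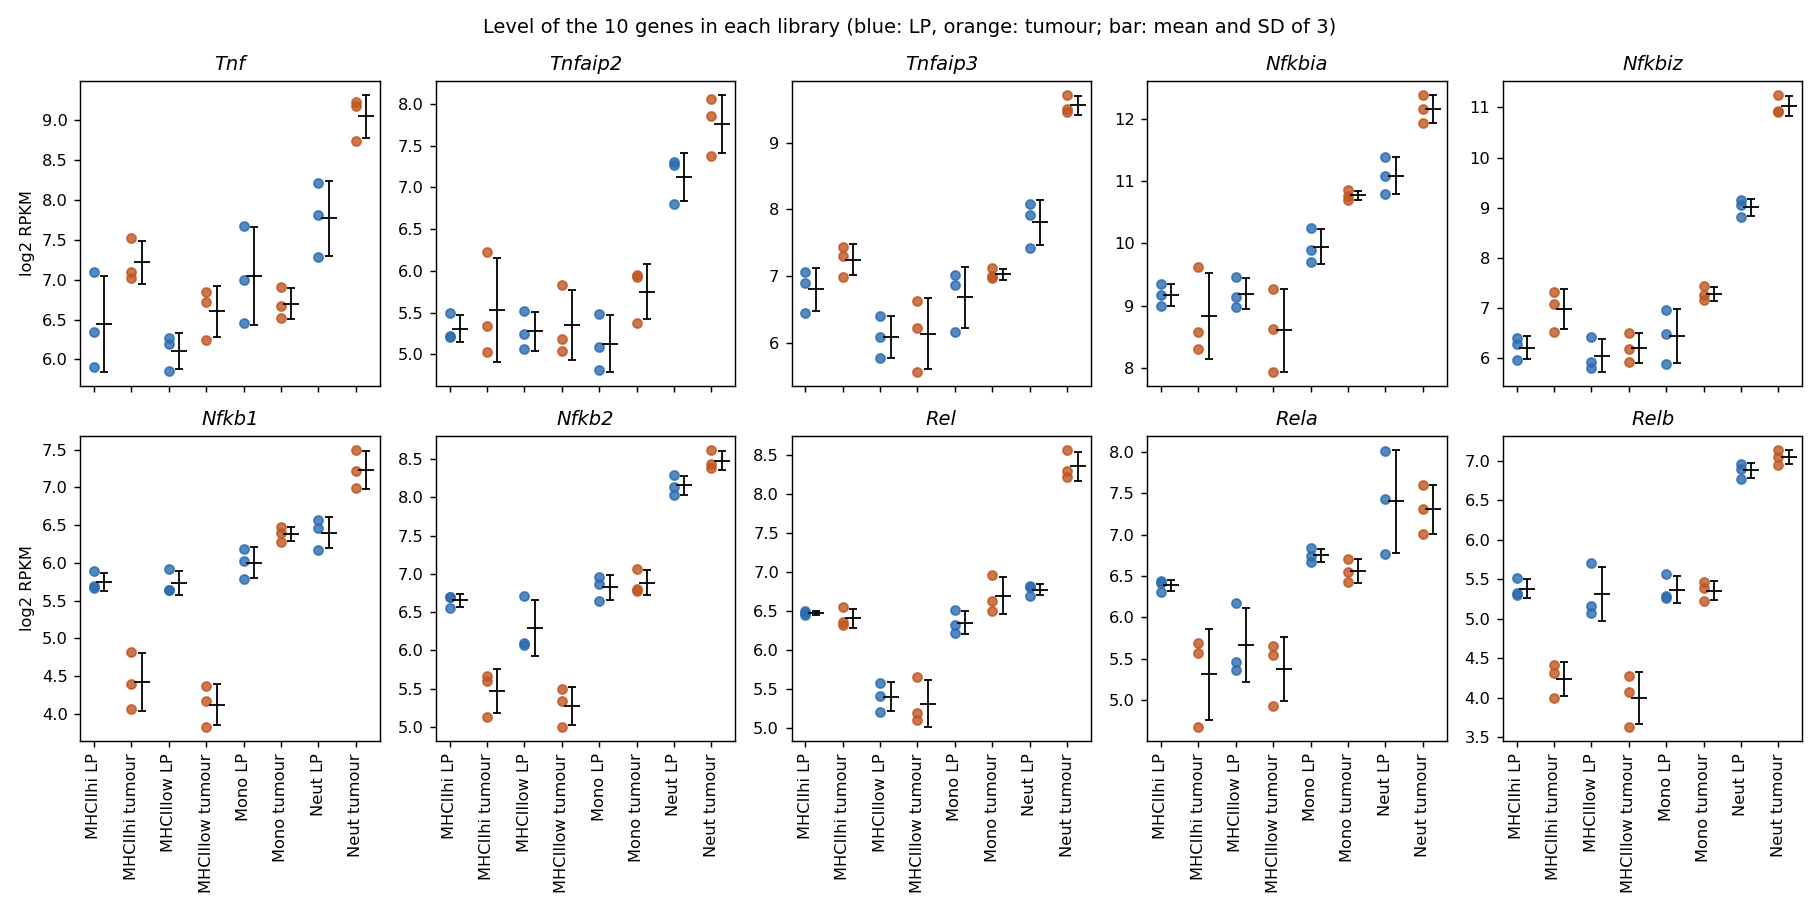
Level of each of the 10 genes (log2 RPKM) in all 24 libraries, 3 points per group, for the 4 cell populations from LP and tumour. Tumour neutrophils are highest for 9 of the 10 genes, and the tumour macrophages are lowest for Nfkb1, Nfkb2 and Relb.

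Comparing tumour with LP, neutrophils changed in 6 of the 10 genes, all higher, where 13.1% of all genes tested were called higher and 32.2% in either direction. MHCIIhi macrophages changed in 5, with Nfkbiz higher and Nfkb1, Nfkb2, Rela and Relb lower, against 19.5% of all genes called and 11.5% called lower. In MHCIIlow macrophages Nfkb1, Nfkb2 and Relb fell, 3 of 10, against 23.3% of all genes called and 11.8% called lower. The share of all genes called lower in both macrophage populations was 6.65%. Monocytes changed in Nfkbiz alone, 1 of 10, against 9.29% of all genes. Averaged over the 4 populations 9 of 10 were called, 5 higher and 4 lower, against 42.4% of all genes, and Nfkbia was the exception. A call of this mean does not show an effect common to the populations. Nfkb1 was at -0.43 in the mean and 0.84 in neutrophils. Rel was at 0.44 in the mean, with 1.58 in neutrophils and -0.07 and -0.09 in MHCIIhi and MHCIIlow macrophages. The 3 tumour libraries lay wholly outside the range of the 3 LP libraries for 8 genes in neutrophils, 5 in MHCIIhi macrophages, 3 in MHCIIlow macrophages and 3 in monocytes, where the shares over all genes tested were 40.1%, 43.0%, 42.1% and 31.4%.

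**Figure D2:**
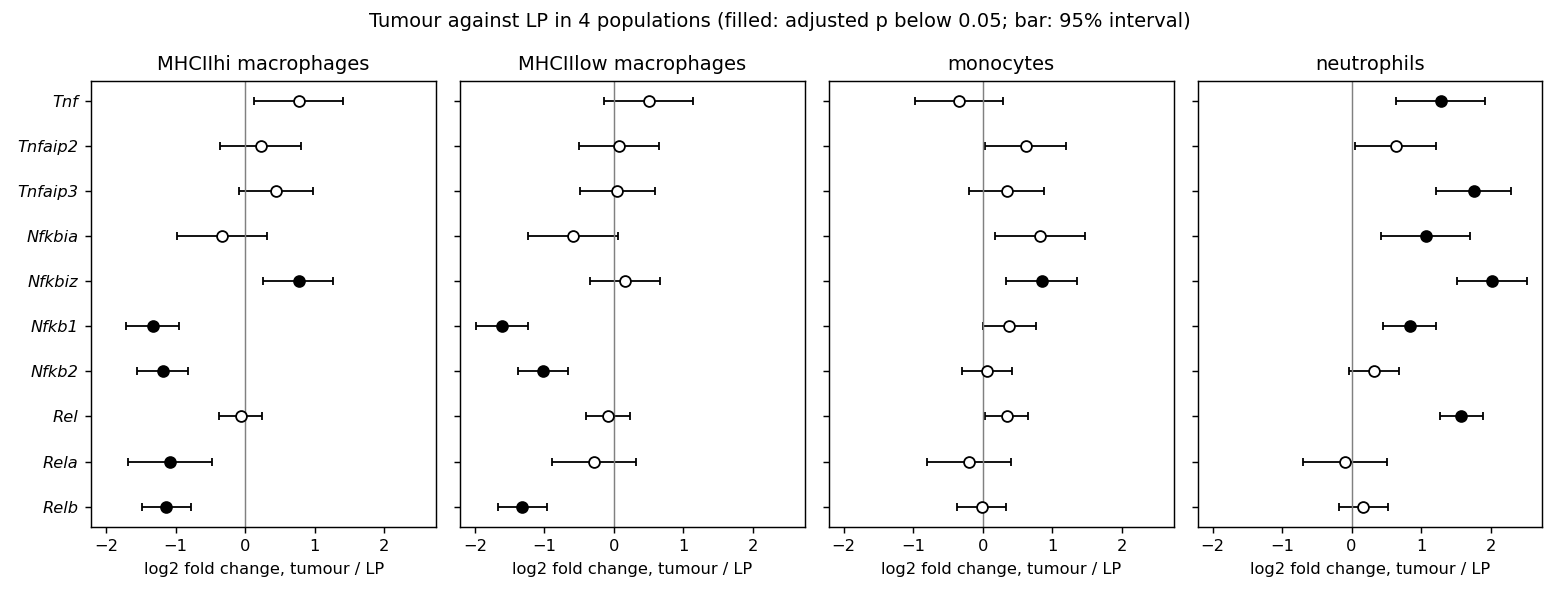
Log2 fold change of tumour over LP with its 95% interval for each gene in each population. Tnf, Tnfaip3, Nfkbia, Nfkbiz, Nfkb1 and Rel are called higher in neutrophils, and Nfkb1, Nfkb2 and Relb are called lower in both macrophage populations.

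Tnf (ENSMUSG00000024401.10, chr17:35199381-35202007, GRCm38) encodes the cytokine itself. In neutrophils its level was 7.82, 8.22 and 7.28 log2 RPKM in LP pools III, IV and V and 9.18, 9.23 and 8.74 in tumour pools I, II and V. All tumour libraries lay above all LP libraries, and the difference of 1.28 (SE 0.305, 2.43-fold) was called, with an adjusted p of 0.00315. Under quantile normalization the difference was 0.83 with an adjusted p of 0.0559. In MHCIIhi macrophages the level was 6.35, 7.09 and 5.90 in LP pools III, IV and V and 7.53, 7.02 and 7.10 in tumour pools I, V and VII. The groups overlapped, as LP pool IV lay above tumour pool V, and the difference of 0.77 (95% interval 0.13 to 1.41) was not called at an adjusted p of 0.0852. It was called without LP pool IV (adjusted p 0.0211), under quantile normalization (1.00, adjusted p 0.0208) and with summed reads as library size (0.89, adjusted p 0.0341). MHCIIlow macrophages had 6.27, 6.19 and 5.85 in LP pools II, III and IV and 6.85, 6.71 and 6.24 in tumour, an overlapping pair with a difference of 0.50 (-0.14 to 1.13). Monocytes had 7.0, 7.68 and 6.46 in LP and 6.91, 6.67 and 6.52 in tumour pools I, II and V, a difference of -0.34 (-0.98 to 0.29) within overlapping ranges. By level, tumour neutrophils (mean 9.05, SD 0.27, n = 3) came first without overlap, and each of the 7 groups after them overlapped its neighbour, down to LP MHCIIlow macrophages at 6.11 (SD 0.22).

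Tnfaip2 (ENSMUSG00000021281.11, chr12:111442469-111455018), a TNF-induced gene whose product takes part in forming membrane nanotubes, was highest in neutrophils. Neutrophil levels were 7.31, 6.80 and 7.27 in LP and 7.38, 7.85 and 8.06 in tumour, while the other 6 groups lay between 4.81 and 6.23. Every neutrophil library was above every other library, and tumour neutrophils were above LP neutrophils by 0.64 (0.06 to 1.22) at an adjusted p of 0.0875, which was not called. The difference was 0.88 with an adjusted p of 0.0179 after centring on each library's median. MHCIIhi macrophages spanned 5.21 to 5.50 in LP and 5.03 to 6.23 in tumour, and MHCIIlow macrophages 5.06 to 5.52 and 5.03 to 5.83, so both pairs overlapped. Monocytes had 5.09, 4.81 and 5.49 in LP and 5.93, 5.95 and 5.37 in tumour pools I, II and V. They overlapped as LP pool V lay above tumour pool V, and the difference of 0.62 (0.04 to 1.2) was not called (adjusted p 0.190). In the mean over the 4 populations it was 0.39 higher in tumour at an adjusted p of 0.0303, a call that was lost when any 1 of 8 libraries was left out and with summed reads as library size (0.26, adjusted p 0.106). Its exons share 6.3% of their bases with an antisense gene, Gm40578, from which reads of this kit, which does not mark strand, cannot be told apart.

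Tnfaip3 (ENSMUSG00000019850.7, chr10:19000910-19015657) encodes A20, an enzyme that edits ubiquitin chains and restrains signalling to NF-kappaB. Its level in neutrophils was 7.91, 8.08 and 7.42 for LP and 9.71, 9.51 and 9.45 for tumour. No library overlapped, and the rise of 1.76 (SE 0.257, 3.38-fold) was called at an adjusted p of 3.47e-05 and in all 16 alternatives. MHCIIhi macrophages had 6.89, 7.07 and 6.45 in LP and 7.44, 6.99 and 7.31 in tumour, a difference of 0.44 (-0.09 to 0.98) that was not called. MHCIIlow macrophages had 6.41, 6.09 and 5.77 in LP and 6.63, 6.22 and 5.56 in tumour, overlapping throughout. In monocytes the levels were 6.87, 7.01 and 6.16 in LP and 7.0, 6.96 and 7.11 in tumour, where LP pool V stood low and tumour pools were close together.

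Nfkbia (ENSMUSG00000021025.7, chr12:55489410-55492647), encoding the inhibitor IkappaBalpha that holds dimers in the cytoplasm and is itself induced by them, had the highest level of the 10 genes in every group. Neutrophils had 11.08, 11.38 and 10.79 in LP and 12.15, 12.38 and 11.93 in tumour, with no overlap. The difference of 1.07 (SE 0.308, 2.10-fold) was called at an adjusted p of 0.0120, but not without LP pool V (0.0536), and not under quantile normalization, where it was 0.19 (adjusted p 0.668), or with summed reads as library size (0.60, adjusted p 0.0903). Monocytes had 9.70, 10.25 and 9.89 in LP and 10.70, 10.76 and 10.85 in tumour, and although no library overlapped, the difference of 0.82 (0.18 to 1.47) was not called (adjusted p 0.105). In macrophages the tumour pools varied most. MHCIIhi macrophages had 9.0, 9.35 and 9.17 in LP against 9.62, 8.59 and 8.31 in tumour pools I, V and VII, and MHCIIlow macrophages 9.46, 9.15 and 8.98 against 9.27, 8.62 and 7.94. Pool I was the highest and pool VII the lowest in both tumour populations, by 1.31 and 1.33, and the differences of -0.33 and -0.58 were not called. Without tumour pool I the MHCIIlow difference was -0.91 and was called (adjusted p 0.0423).

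Nfkbiz (ENSMUSG00000035356.12, chr16:55811375-55838899) encodes IkappaBzeta, a nuclear member of the inhibitor family that helps to switch on secondary response genes. Its level in neutrophils was 9.16, 9.05 and 8.82 in LP and 10.90, 11.25 and 10.93 in tumour. The rise of 2.02 (SE 0.241, 4.05-fold) was the largest of the 10 genes, with an adjusted p of 4.06e-06, and was called in all 16 alternatives. In MHCIIhi macrophages it went from 6.28, 6.40 and 5.97 in LP to 7.09, 6.54 and 7.33 in tumour, no library overlapping, a rise of 0.77 (SE 0.241, adjusted p 0.0292). Monocytes had 6.48, 6.96 and 5.89 in LP and 7.44, 7.26 and 7.16 in tumour, a rise of 0.84 (adjusted p 0.0317). Both of these calls were lost in some alternatives, 6 of 16 in MHCIIhi macrophages and 8 of 16 in monocytes. Without LP pool V the adjusted p was 0.128 in MHCIIhi macrophages and 0.189 in monocytes. Without tumour pool VII it was 0.148 in MHCIIhi macrophages. In MHCIIlow macrophages, at 6.42, 5.93 and 5.81 in LP and 6.51, 5.93 and 6.19 in tumour, the groups overlapped, and the difference was 0.16 (-0.35 to 0.66).

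Nfkb1 (ENSMUSG00000028163.13, chr3:135584655-135691547) encodes the precursor of a DNA-binding subunit of the canonical pathway. Its level fell in both macrophage populations of tumours. MHCIIhi macrophages had 5.67, 5.69 and 5.89 in LP and 4.82, 4.39 and 4.06 in tumour, and MHCIIlow macrophages 5.91, 5.64 and 5.64 and 4.37, 4.16 and 3.83. No library overlapped, and the falls of -1.33 (SE 0.182, 2.51-fold, adjusted p 2.52e-05) and -1.61 (SE 0.182, 3.05-fold, adjusted p 2.01e-06) were called in all 16 alternatives each. Neutrophils had 6.46, 6.17 and 6.57 in LP and 7.21, 6.99 and 7.50 in tumour, again without overlap, and rose by 0.84 (adjusted p 0.00153). With summed reads as library size the neutrophil rise was 0.37 with an adjusted p of 0.0663. Monocytes had 5.79, 6.03 and 6.19 in LP and 6.47, 6.39 and 6.28 in tumour, a difference of 0.38 that was not called.

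Nfkb2 (ENSMUSG00000025225.10, chr19:46304320-46312385), the gene of the precursor used by the non-canonical pathway, fell with it in macrophages. MHCIIhi macrophages had 6.56, 6.70 and 6.70 in LP and 5.60, 5.67 and 5.13 in tumour, and MHCIIlow macrophages 6.71, 6.07 and 6.10 and 5.33, 5.49 and 5.00. The groups did not overlap, and the falls of -1.18 (SE 0.174, adjusted p 5.48e-05) and -1.02 (SE 0.174, adjusted p 0.000208) were called in all 16 alternatives each. Neutrophils, at 8.29, 8.04 and 8.14 in LP and 8.44, 8.39 and 8.62 in tumour, did not overlap but differed by 0.33 (-0.04 to 0.69), which was not called except after centring on each library's median (0.57, adjusted p 0.0202). Exons of Nfkb2 share 18.1% of their bases with Psd and AC114539.1 on the other strand, whose reads cannot be told apart from its own.

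Relb (ENSMUSG00000002983.12, chr7:19606217-19629438) encodes the partner of the Nfkb2 product in the non-canonical pathway. It was the third subunit gene to fall in both tumour macrophage populations. MHCIIhi macrophages had 5.52, 5.32 and 5.30 in LP and 4.42, 4.31 and 4.0 in tumour, and MHCIIlow macrophages 5.70, 5.17 and 5.07 and 4.08, 4.28 and 3.63. No library overlapped, and the falls of -1.14 (SE 0.169, adjusted p 6.36e-05) and -1.32 (SE 0.169, adjusted p 8.85e-06) were called in all 16 alternatives each. Monocytes were at 5.28, 5.56 and 5.26 in LP and 5.46, 5.39 and 5.22 in tumour, and neutrophils at 6.95, 6.77 and 6.90 and 7.13, 6.95 and 7.05. Both pairs overlapped, with differences of -0.01 (-0.37 to 0.34) and 0.17 (-0.18 to 0.52).

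Rela (ENSMUSG00000024927.7, chr19:5637483-5648130) encodes the subunit that activates transcription in the canonical pathway. In MHCIIhi macrophages it was 6.31, 6.42 and 6.44 in LP and 5.69, 5.57 and 4.68 in tumour pools I, V and VII. The fall of -1.08 (SE 0.289, adjusted p 0.0114) was called, but not without tumour pool VII (-0.76, adjusted p 0.0881). In MHCIIlow macrophages the levels were 5.36, 6.17 and 5.46 in LP and 5.55, 5.65 and 4.93 in tumour, overlapping, with a difference of -0.29 (-0.89 to 0.32). Neutrophils had 7.42, 6.77 and 8.01 in LP, the widest spread of any group for this gene, and 7.60, 7.01 and 7.30 in tumour, and differed by -0.10 (-0.70 to 0.51). Monocytes were at 6.67 to 6.83 in LP and 6.42 to 6.71 in tumour and overlapped. In the mean over the 4 populations the difference was -0.41 (adjusted p 0.0268), called in 30 of 34 alternatives. That call was lost without LP MHCIIlow pool III (0.0534), LP neutrophil pool V (0.0512), tumour MHCIIhi pool VII (0.0514) or tumour MHCIIlow pool VII (0.0540).

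Rel (ENSMUSG00000020275.8, chr11:23736847-23770970), encoding c-Rel, the subunit most restricted to blood cells, had the largest neutrophil rise of the 5 subunit genes. Its neutrophil levels were 6.82, 6.70 and 6.81 in LP and 8.21, 8.56 and 8.28 in tumour. The gap between groups was wider than the spread within them, and the rise of 1.58 (SE 0.149, 2.98-fold) had an adjusted p of 3.02e-07 and was called in all 16 alternatives. MHCIIhi macrophages had 6.51, 6.48 and 6.45 in LP and 6.55, 6.32 and 6.37 in tumour, and MHCIIlow macrophages 5.59, 5.21 and 5.42 and 5.66, 5.19 and 5.10. Both pairs overlapped, with differences of -0.07 (-0.38 to 0.25) and -0.09 (-0.40 to 0.22). Monocytes had 6.32, 6.52 and 6.22 in LP and 6.50, 6.96 and 6.63 in tumour, a difference of 0.34 (0.03 to 0.66) that was not called (adjusted p 0.174).

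The balance among the 5 subunit genes can be read from their shares of summed RPKM. The sum was 369.3 RPKM in LP and 212.7 in tumour MHCIIhi macrophages, and 269.1 and 155.9 in MHCIIlow macrophages. Monocytes had 409.5 and 442.2 RPKM, and neutrophils 777.5 and 1131. Rel made up 24.2% (23.2 to 25.2) of the sum in LP and 40.6% (36.4 to 46.9) in tumour MHCIIhi macrophages, 15.9% (14.1 to 17.9) and 26.1% (21.6 to 28.8) in MHCIIlow macrophages, and 14.2% (12.95 to 15.8) and 29.1% (26.3 to 34.6) in neutrophils. The ranges of LP and tumour did not overlap in these 3 populations, and overlapped in monocytes, at 20.0% (17.9 to 21.2) and 23.7% (19.6 to 27.3). These shares are descriptions without a test, and they depend on gene length. With the exon lengths of GENCODE M21 in place of those the values imply, the share of Rel was 13.8% and 25.4% in MHCIIhi macrophages, 8.87% and 14.7% in MHCIIlow macrophages, 11.2% and 13.97% in monocytes, and 7.48% and 17.4% in neutrophils.

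**Figure D3:**
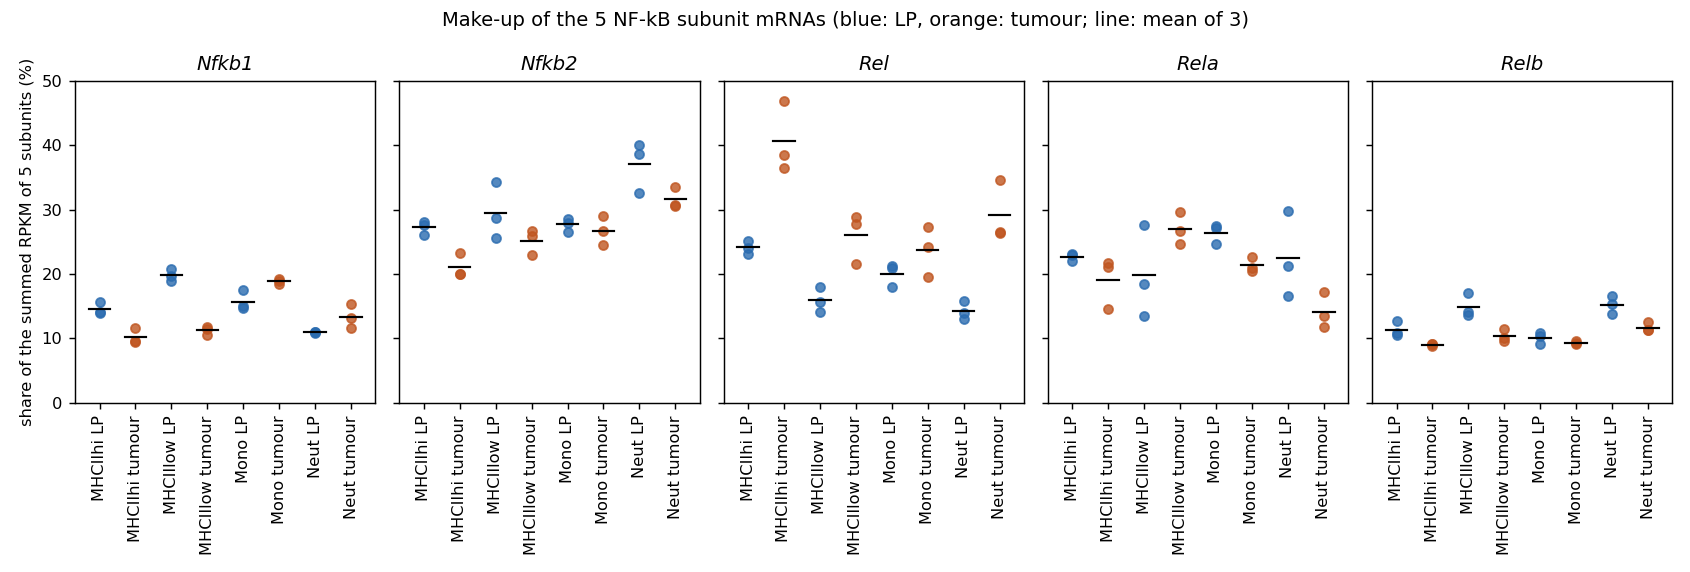
Share of each of the 5 subunit genes in their summed RPKM (%), with 1 point per library and a line at the mean of 3. Rel takes a larger share in tumour than in LP in both macrophage populations and in neutrophils, from 24.2% to 40.6% in MHCIIhi macrophages, and its LP and tumour points overlap in monocytes.

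Whether the tumour effect differed between populations was tested directly. These comparisons share libraries with those above and with each other. Between MHCIIlow and MHCIIhi macrophages no gene differed in its tumour effect, 0 of 10 in limma, where 1.46% of all genes did, and 0 had an unadjusted p below 0.05. The 95% interval of this difference was -0.06 to 1.64 for Rela and -1.33 to 0.10 for Nfkbiz. The mean macrophage effect was below that of monocytes for 4 genes, where 5.64% of all genes were called lower and 9.19% in either direction. They were Nfkbia (-1.28, adjusted p 0.0368), Nfkb1 (-1.85, adjusted p 2.07e-05), Nfkb2 (-1.16, adjusted p 0.00128) and Relb (-1.21, adjusted p 0.000689). The Nfkbia call was kept in 14 of 28 alternatives. It was lost under quantile normalization (-0.81, adjusted p 0.122) and with only the groups compared (adjusted p 0.0544). The neutrophil effect was above that of monocytes for 4 genes, where 3.61% of all genes were called higher and 9.11% in either direction, and these were Tnf (1.62, adjusted p 0.0222), Tnfaip3 (1.41, adjusted p 0.0187), Nfkbiz (1.17, adjusted p 0.0353) and Rel (1.23, adjusted p 0.00124). Under quantile normalization 1 of these 4 calls was kept, that of Rel, which was called in all 22 alternatives. Neutrophils were above the mean of the macrophages for 7 genes, where 11.5% of all genes were called higher and 26% in either direction, and Nfkb1 differed most, by 2.3 (adjusted p 5.73e-07). Under quantile normalization the calls of Nfkbia (0.51, adjusted p 0.291), Nfkbiz (0.81, adjusted p 0.0767) and Tnfaip3 (0.85, adjusted p 0.0662) were lost.

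Among the populations of one tissue, tumour neutrophils exceeded tumour monocytes in all 10 genes, where 23.3% of all genes were called higher and 58.1% in either direction. Nfkbiz differed most, by 3.74 (13.4-fold, adjusted p 1.31e-10), from 7.16 to 7.44 in monocytes to 10.90 to 11.25 in neutrophils. In LP, neutrophils exceeded monocytes in 7 genes, where 24.1% of all genes were called higher and 54.5% in either direction, among them Nfkbiz (2.57), Tnfaip2 (2.00), Relb (1.51) and Nfkb2 (1.33). These libraries share donor numbers III, IV and V, and with donor number as a fixed block the remaining 3 genes were called higher too, Tnf at 0.73 (adjusted p 0.0139), Nfkb1 at 0.40 (adjusted p 0.0160) and Rela at 0.65 (adjusted p 0.0474). Neutrophils and monocytes did not overlap for those 7 genes in LP and for all 10 in tumour, and the shares over all genes were 60.8% and 62.2%. Quantile normalization turned 5 genes in LP to the other direction, Nfkbia, Rel and the 3 that were not called, Tnf, Nfkb1 and Rela, and 3 in tumours, Nfkbia, Nfkb1 and Rela. Summed reads as library size did so for Tnf, Nfkb1, Rel and Rela in LP and Nfkb1 and Rela in tumours. With summed reads, Rel (-0.40, adjusted p 0.0196) and Nfkb1 (-0.43, adjusted p 0.0213) were called lower in LP neutrophils than in LP monocytes. Other calls were lost with their direction kept. In LP, Nfkb2 was at 0.37 (adjusted p 0.0586) and Tnfaip3 at 0.23 (adjusted p 0.502) under quantile normalization, and Tnfaip3 at 0.30 (adjusted p 0.301) and Nfkbia at 0.31 (adjusted p 0.332) with summed reads. In tumours Nfkbia was at 0.25 (adjusted p 0.441) with summed reads. Leaving out any 1 of 4 libraries also ended the call of Rel in LP (adjusted p 0.0539 to 0.0846) and of Rela in tumours (0.0652 to 0.124).

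Tumour macrophages were lower than tumour monocytes in 5 genes for MHCIIhi, where 18.5% of all genes were called lower and 32.1% in either direction, and in 8 for MHCIIlow, where the shares were 18.4% and 32%. Nfkb1 fell by 1.96 and 2.26 and Nfkbia by 1.93 and 2.16 in these comparisons. Tnf and Tnfaip2 were the genes not called for MHCIIlow. Tnf in MHCIIhi macrophages against monocytes was at 0.52 (adjusted p 0.213). It was called higher with donor number as a fixed block (0.67, adjusted p 0.0138), under quantile normalization (1.01, adjusted p 0.0141) and with summed reads (0.79, adjusted p 0.0407). In the same comparison Tnfaip3 was called higher under quantile normalization (0.71, adjusted p 0.0448). Rel was called lower there after centring on each library's median (-0.43, adjusted p 0.0368). With the fixed block Tnfaip3 in MHCIIlow macrophages was at -0.79 (adjusted p 0.0509), and with only the groups compared at -0.89 (adjusted p 0.0611). Under quantile normalization the calls of Tnfaip3 (-0.45, adjusted p 0.201) and Nfkbiz (-0.60, adjusted p 0.0808) were lost in MHCIIlow macrophages, and that of Tnfaip3 also with summed reads (-0.48, adjusted p 0.135) and without tumour MHCIIlow pool VII (0.0921). In LP, MHCIIhi macrophages and monocytes differed in 0 of 10 genes in limma, where 20.1% of all genes were called, with 1 gene, Nfkbia (-0.77), at an unadjusted p below 0.05 and 1 called by limma voom on whole reads. With donor number as a fixed block Nfkbia was called (adjusted p 0.0160). LP MHCIIlow macrophages were lower than LP monocytes in 4 genes, where 17.6% of all genes were called lower and 29.5% in either direction, with Tnf at -0.94, Nfkb2 at -0.53, Rel at -0.94 and Rela at -1.09. Rel was called in all 17 alternatives, Tnf in 12 and Nfkb2, whose libraries overlapped, in 10. Under quantile normalization Tnf was at -0.62 (adjusted p 0.129) and Nfkb2 at -0.15 (adjusted p 0.513), and with summed reads as library size at -0.70 (adjusted p 0.0755) and -0.29 (adjusted p 0.134). Without LP monocyte pool IV the adjusted p was 0.160 for Tnf and 0.0992 for Nfkb2. It was also above 0.05 without LP MHCIIlow pool IV for Tnf (0.0971) and Nfkb2 (0.118), and for Nfkb2 without LP MHCIIlow pool III (0.121) or LP monocyte pool V (0.0735). With donor number as a fixed block, Rela was at -0.81 (adjusted p 0.0700), and Tnfaip3 at -0.96 (adjusted p 0.00238), Nfkbia at -0.94 (adjusted p 0.0114) and Nfkbiz at -0.74 (adjusted p 0.0243) were called.

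Between the macrophage populations, Rel was lower in MHCIIlow than in MHCIIhi cells in both tissues. It was 1 of 10 genes called in LP, against 7.7% of all genes, at -1.07 (SE 0.149, adjusted p 0.000133), and all MHCIIlow libraries (5.21 to 5.59) lay below all MHCIIhi libraries (6.45 to 6.51). In tumours 2 of 10 were called, against 1.13% of all genes. Rel was at -1.09 (SE 0.149, adjusted p 0.00127) and Tnfaip3 at -1.10 (SE 0.257, adjusted p 0.0403). The Tnfaip3 call was kept in 11 of 17 alternatives. It was lost without tumour MHCIIlow pool V (adjusted p 0.104) or VII (0.185) and without tumour MHCIIhi pool I (0.124) or VII (0.127). With donor number as a fixed block it was lost too (0.111). With the libraries of these 2 groups alone, neither was called, with an adjusted p of 0.215 for Rel and 0.316 for Tnfaip3. Donor numbers as a fixed block gave Tnfaip3 in LP at -1.08 (adjusted p 0.00682).

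Pools of one tissue deviated together for some genes in some populations. LP pool IV was highest and LP pool V lowest for Tnf and for Tnfaip3 in MHCIIhi macrophages, monocytes and neutrophils, over ranges of 0.62 to 1.22 log2. In LP MHCIIlow macrophages, which had no pool V, pool IV was instead the lowest for both, at 5.85 and 5.77. Pool II of that group, whose monocyte markers stood apart, was the highest for every gene but Rela. The range within the group was 0.28 log2 for Nfkb1, 0.64 for Nfkb2 and 0.63 for Relb. The falls of these genes in tumour MHCIIlow macrophages were called in all 16 alternatives, which include leaving out this pool. In tumour macrophages pool I was highest and pool VII lowest for Tnfaip2, Nfkbia and Nfkb1 in both populations. Pool I was the lowest for Tnfaip2 in tumour neutrophils and for Nfkbia in tumour monocytes. These are descriptions of 3 pools per group.

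Across the 24 libraries, which share the 8 groups and so the differences already given, the genes most like each of the 10 were found by Pearson r. The choice depends on the measure, as 8 of these 30 genes were also among the 3 nearest by Spearman's rho, and none of those named for Nfkb1, Nfkb2, Rel or Relb. Tnf was nearest to Tnfaip3 (0.943), Oaz2 (0.938) and Inpp5k (0.921), and Tnfaip2 to Rab20 (0.966), Anxa11os (0.958) and Gm15758 (0.953). Tnfaip3 was nearest to Junb (0.967), Nfkbiz (0.952) and Zfp36 (0.949), and Rel to Tnfaip3 (0.935), Nfkbie (0.932) and H2-T23 (0.926). Relb was nearest to Bcl2l11 (0.989), Nfkb2 (0.985) and Tnfrsf1a (0.984), and Nfkb2 to Bcl2l11 (0.989), Ehd1 (0.987) and Fas (0.986). Nfkbia was nearest to Plaur (0.976), Cxcl2 (0.974) and Ptafr (0.972), and Nfkbiz to Ccnl1 (0.985), Skil (0.985) and Clk1 (0.983). Nfkb1 was nearest to Cd44 (0.973), Cdc42ep4 (0.971) and Adgre5 (0.968), and Rela to Rnf149 (0.953), Dusp5 (0.951) and Stx6 (0.951). Among the 10 genes themselves the values ran from 0.505 for Tnf and Nfkb1 to 0.985 for Nfkb2 and Relb.

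Other genes of the pathway were read from a list of 62 (receptors, adaptors, kinases, inhibitors and regulators of Tnf mRNA), of which 61 were tested. In MHCIIhi macrophages 27 changed (44.3%, against 19.5% of all genes), 5 higher and 22 lower in tumour, with a median difference of -0.44 against 0.00 over all genes. MHCIIlow macrophages had 10 higher and 20 lower (49.2% called, against 23.3%), with a median of -0.30 against 0.06, and neutrophils 13 and 13 (42.6%, against 32.2%). Monocytes had 4 and 3, and their share of 11.5% was close to the 9.29% of all genes. Of the 5 receptor genes, Cd40, Tnfrsf1a and Tnfrsf1b, the last 2 being the receptors of TNF, fell in both macrophage populations, where 6.65% of all genes did, and Ltbr was called lower in MHCIIhi macrophages but not in MHCIIlow macrophages. Of the 16 inhibitors and deubiquitinases, 9 were lower in both, where 11.5% and 11.8% of all genes were lower in each and 6.65% in both, and this overlap was not tested. They were Tank, Otud7b, Tnip1, Tnip2, Tnip3, Tax1bp1, Usp18, Bcl3 and Nfkbib. Of the same class Itch and Nfkbid were higher in MHCIIhi macrophages, and Itch, Cyld, Nfkbil1 and Nfkbie in MHCIIlow macrophages. In neutrophils 4 of the 16 rose, Nfkbib, Nfkbid, Cyld and Nfkbie, against 13.1% of all genes, and 4 fell, Tnip1, Tnip3, Usp18 and Otulin, against 19% of all genes.

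A list of 35 tested NF-kappaB response genes (cytokines, chemokines and survival genes) had 8 higher and 8 lower in MHCIIhi macrophages (45.7% called, against 19.5% of all genes), 9 and 9 in MHCIIlow macrophages (51.4%, against 23.3%), 14 and 1 in monocytes (42.9%, against 9.29%), and 16 and 4 in neutrophils (57.1%, against 32.2%). Its median difference was 0.68 in monocytes and 0.69 in neutrophils, against 0.00 and -0.12 over all genes. Of 20 immediate-early genes, which also respond to tissue digestion, 12 rose and 0 fell in neutrophils (60% called, against 32.2% of all genes), 6 rose and 0 fell in monocytes (30%, against 9.29%), and 7 rose and 2 fell in MHCIIhi macrophages (45%, against 19.5%). In MHCIIlow macrophages 2 rose and 4 fell, and this share of 30% was near the 23.3% of all genes. Their summed RPKM was 9115 to 10087 across LP neutrophils and 26336 to 32671 across those of tumours. Tnf, Tnfaip3, Nfkbia, Nfkbiz, Nfkb1 and Rel were also called higher in tumour neutrophils. The part of digestion in these results was not tested.

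Across these lists, the largest tumour rises in MHCIIhi macrophages were Saa3 (3.41, 10 to 24 reads in LP), Atf3 (2.46), Nr4a1 (2.41) and Il1a (2.32). The largest falls there were Otud7b (-3.65, 0 to 40 reads in tumour), Fosl1 (-3.40, 23 to 343 reads in tumour), Usp18 (-3.30) and Tnip3 (-3.17). In MHCIIlow macrophages Il23a rose most in the fit, but had at most 2 reads in any LP library and no usable fold. It was followed by Nos2 (5.44, 4 to 97 reads in LP), Ltb (3.32, 0 to 36 reads in LP, with overlapping libraries) and Csf1 (2.87). The falls in MHCIIlow macrophages were Fosl1 (-4.46), Otud7b (-3.94, 19 to 46 reads in tumour), Usp18 (-3.49) and Tnfaip6 (-2.61, 18 to 115 reads in tumour). Monocytes rose most in Il23a (5.99, 18 to 379 reads in LP), Il1a (3.16), Ptgs2 (2.71) and Nr4a1 (2.23) and fell in Usp18 (-2.39), Vcam1 (-1.48), Ripk1 (-1.19) and Ltbr (-0.74). Neutrophils rose most in Il1a (4.12), Nr4a1 (3.81), Il23a (3.80) and Fosl1 (2.84). They fell in Ccl5 (-6.08, 0 to 12 reads in tumour), Otulin (-2.65, 7 to 14 reads in tumour), Cd40 (-2.37, 28 to 51 reads in tumour) and Tnip3 (-2.16).

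Markers of other cells moved with some of these results, and their part was not tested. The 7 dendritic cell markers summed to 51.4 to 73.7 RPKM in LP and 5.05 to 14.8 in tumour MHCIIhi macrophages, in which Nfkb1, Nfkb2, Rela and Relb fell, and to 9.51 to 17.1 and 3.87 to 5.99 in MHCIIlow macrophages. They summed to 93.3 to 187.3 RPKM in LP and 2.82 to 20.6 in tumour neutrophils. Of the 4 tested, 3 were called lower in tumour in MHCIIhi macrophages and 3 in neutrophils, against 11.5% and 19% of all genes. In MHCIIlow macrophages 1 was called lower, against 11.8% of all genes, and in monocytes 0. The 10 neutrophil markers summed to 31.1 to 89.3 RPKM in LP macrophages and 154.2 to 691.5 in tumour macrophages. Most of the tumour sum was Mmp9, a secreted protease, at 7.61 to 54.1 RPKM in LP macrophages, 101.4 to 186.6 in tumour MHCIIhi and 205.2 to 644.7 in tumour MHCIIlow macrophages. Without it the other 9 markers summed to 23.5 to 41.1 RPKM in LP and 38.8 to 56.0 in tumour macrophages. In MHCIIhi macrophages 2 of the 10 were called, Mmp9 and S100a9, both higher, a share near the 19.5% of all genes. In MHCIIlow macrophages 4 of 10 were called, Mmp9, Mmp8, Ly6g and Retnlg, all higher, against 23.3% of all genes. Ly6g had 0 reads in every library of LP macrophages and of tumour MHCIIhi macrophages, and 0 to 40 reads in tumour MHCIIlow macrophages. Camp had 0 reads in all tumour macrophages, but only 74 to 586 in neutrophils. The remaining markers had reads in tumour MHCIIlow macrophages. These were Csf3r (2073 to 3302), Mmp8 (497 to 1423), Cxcr2 (14 to 234), Ngp (0 to 164), S100a8 (65 to 101), S100a9 (58 to 82) and Retnlg (14 to 28). The 9 monocyte markers summed to 88.6 to 94.8 RPKM in LP and 39.1 to 51.5 in tumour MHCIIhi macrophages. There 6 were called lower and 1 higher (median -2.95), 77.8% against 19.5% of all genes. In MHCIIlow macrophages they summed to 151.7 to 460.1 and 55.8 to 114.9, with 2 lower and 1 higher, 33.3% against 23.3% of all genes. Fibroblast and endothelial markers were lower in each tumour population, 5 of 7 tested in monocytes and in both macrophage populations and 6 of 7 in neutrophils, with 1 called higher in MHCIIlow macrophages. Over all genes 11.5% were called lower in MHCIIhi macrophages, 11.8% in MHCIIlow macrophages, 19% in neutrophils and 571 of 12878 in monocytes. Their 9 genes summed to 20.6 to 70.0 RPKM across the LP groups, and to 11.1 to 21.5 in tumour macrophages and 2.98 to 12.4 in tumour monocytes and neutrophils. B and plasma cell markers (7 genes) were at 1924 to 9139 RPKM for LP and 4.16 to 105.6 for tumour neutrophils, and at 897.3 to 3898 and 1.31 to 40.8 in monocytes. They were at 56.9 to 148.1 and 9.48 to 43.5 in MHCIIhi macrophages. In MHCIIlow macrophages they were at 63.9 to 1371 and 8.80 to 199.3. Of 6 tested, 4 were called lower in neutrophils, 4 in monocytes, 1 in MHCIIlow and 0 in MHCIIhi macrophages. The shares of all genes called lower are those given above for each population. Epithelial markers (9 genes) ran the other way, at 17.6 to 58.2 RPKM in LP and 150.9 to 276.8 in tumour neutrophils. Their median difference was 2.91 in neutrophils, 3.08 in monocytes, 1.23 in MHCIIhi and 1.6 in MHCIIlow macrophages. Of 8 tested, 2 were called higher in neutrophils and 2 in monocytes (25%, against 32.2% and 9.29% of all genes called). In each macrophage population 1 was called higher (12.5%, against 19.5% and 23.3%).

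Scaling matters most for neutrophils. The library size behind the deposited values was 0.465 to 0.483 times the summed reads in tumour neutrophils, 0.630 to 0.682 times in LP neutrophils and 0.981 to 1.51 times elsewhere. With summed reads as the library size the median gene differed by -0.57 between tumour and LP neutrophils, against -0.12 in deposited values, and 16% instead of 40.8% of the calls were higher in tumour. Tumour neutrophils were then highest for 6 of the 10 genes, 6 under quantile normalization and 10 after centring on each library's median, while a macrophage group stayed lowest for 9 of the 10 in each. Tnfaip3, Nfkbiz and Rel were called higher in tumour neutrophils under every one of these scalings, and Nfkb1, Nfkb2 and Relb lower in both tumour macrophage populations.

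**Figure D4:**
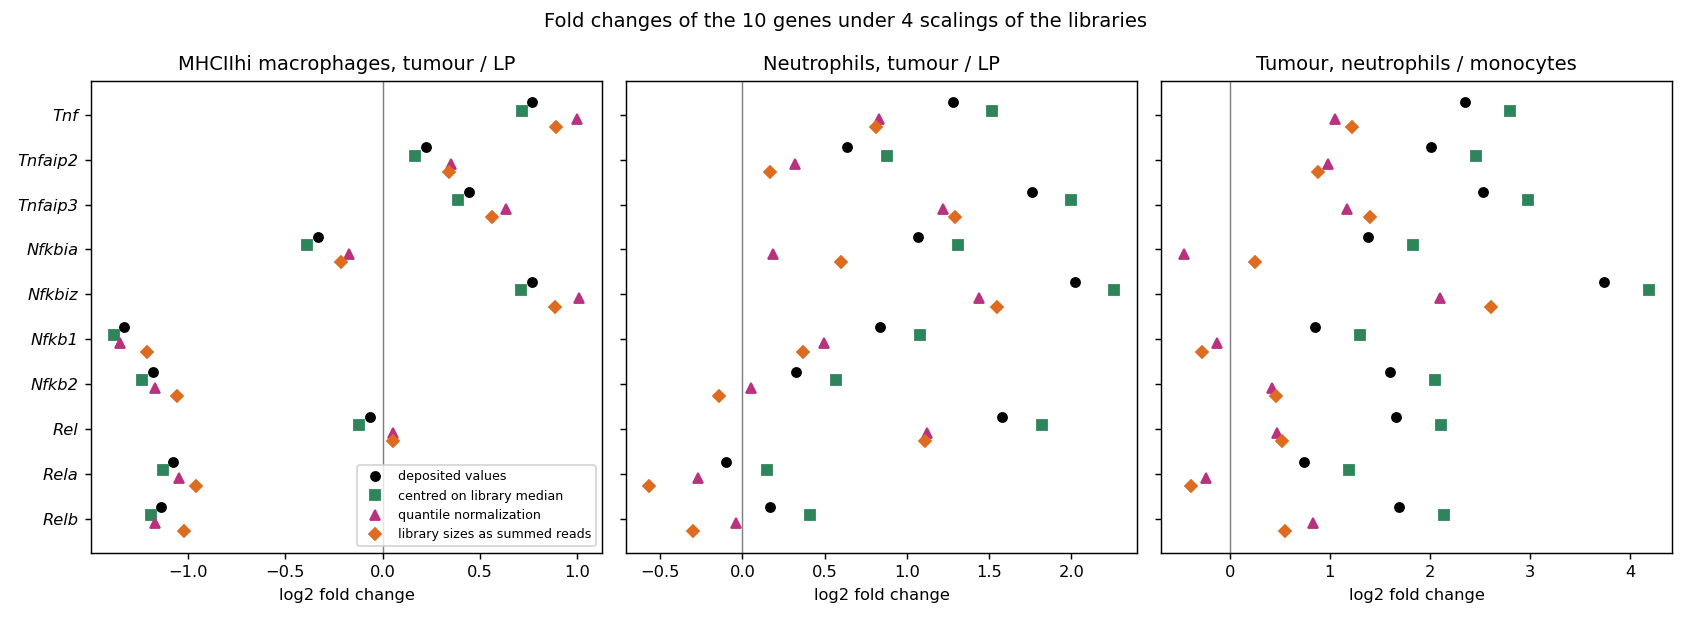
Log2 fold change of the 10 genes in MHCIIhi macrophages and neutrophils (tumour over LP) and of tumour neutrophils over tumour monocytes, with 1 marker for each of 4 scalings. The falls of Nfkb1, Nfkb2 and Relb in MHCIIhi macrophages and the rises of Tnfaip3, Nfkbiz and Rel in neutrophils keep their direction in each, and Nfkbia, Nfkb1 and Rela change side in the comparison with monocytes under some.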

How the data were processed

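Libraries were made with SMARTSeq v2 from sorted cells and sequenced as paired 51-base reads. Per the labels and the study's methods, the authors aligned them to GRCm38/mm10 with STAR 2.3, counted them with featureCounts 1.5 and GENCODE annotation, and the authors name edgeR among their tools. Genes averaging under 10 reads in all populations were removed by the authors. The authors deposited 1 table of log2 RPKM values, with 24 library columns, all used. Whole reads were recovered for 100% of 415224 values within 0.01 reads.

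Symbols came from a table of gene names (17190 of 17301 identifiers). The test was limma 3.58.1 with trend (R 4.3.3) on the deposited log2 values of 12878 genes, over all 24 libraries, with Benjamini-Hochberg adjustment at 0.05 over all genes in each of 17 comparisons; the last, neutrophils against the mean of the macrophages, was added after seeing the data. An exact permutation test of 3 libraries against 3 cannot go below 0.1 and was not used. Alternatives were a pseudocount of 1 or 0.1, no filter or a minimum of 5 RPKM, quantile normalization, centring on the library median, only the libraries of the groups compared, limma voom on whole reads, donor number as a random or fixed block, and each library left out. The fixed block was fitted only for comparisons within a tissue. Summed reads as library size was added after seeing the data. Voom called 2768 genes in tumour against LP neutrophils and 3797 in MHCIIhi macrophages. The labels call the number of a library its donor, so numbers pair libraries within a tissue; over 29 such pairs the correlation of deviations from group means had a median of 0.017 and ran from -0.066 to 0.255. The scripts were tested on simulated data.

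The 10 genes and the lists were chosen with earlier results of these data known. Of the lists, the 4 called genes that rose most and the 4 that fell most are named for each population in tumour against LP (the rule also covers 2 and 2 elsewhere, not printed here), and for each of the 10 genes the 3 genes with the highest r. Python 3.11.15, numpy 2.4.6, pandas 2.3.3, scipy 1.17.1 and matplotlib 3.10.9 were used.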

Additional observations from a re-analysis of the deposited data

Results flagged for a closer look

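The tumour effect differed between populations for 15 gene and comparison pairs by a test of the difference itself in limma, all over comparisons that share libraries. The mean effect in macrophages was below that in monocytes for Nfkb1 (-1.85), Nfkbia (-1.28), Relb (-1.21) and Nfkb2 (-1.16). For Nfkbia the adjusted p passed 0.05 when any 1 of 12 libraries was left out (0.0510 to 0.104). Its call was also lost under quantile normalization (-0.81, adjusted p 0.122) and with only the groups compared (adjusted p 0.0544). The effect in neutrophils was above that in monocytes for Tnf (1.62), Tnfaip3 (1.41), Rel (1.23) and Nfkbiz (1.17). Without LP neutrophil pool V the calls of Tnf, Tnfaip3 and Nfkbiz were lost (adjusted p 0.0609, 0.0511 and 0.0775). The Tnf call was also lost without LP monocyte pool IV (0.0582) or tumour monocyte pool V (0.0519). Of 22 alternatives Tnfaip3 was called in 20, Tnf in 17 and Nfkbiz in 13. The Nfkbiz call was lost when any 1 of 6 libraries was left out (0.0694 to 0.0907), under quantile normalization (0.63, adjusted p 0.365), with only the groups compared (adjusted p 0.0606) and with summed reads as library size (0.86, adjusted p 0.0948). The effect in neutrophils was above the mean of the macrophages for Nfkb1 (2.3), Rel (1.65), Nfkbiz (1.56), Nfkbia (1.53), Tnfaip3 (1.51), Nfkb2 (1.43) and Relb (1.40), a comparison added after seeing the data, in which Nfkbia, Nfkbiz and Tnfaip3 lost their calls under quantile normalization (adjusted p 0.291, 0.0767 and 0.0662).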

How the results depend on the processing

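Of 76 called differences, 47 stayed called in the same direction in every alternative, and of 1571 alternative values 1458 kept direction and call, 105 lost the call and 8 reversed; of 1769 values of the 94 uncalled differences, 48 became called in the same direction. Neutrophils against monocytes gave these 8. In LP, Nfkbia was at -0.15 and Rel at -0.35 under quantile normalization, and Rel at -0.40 with summed reads; in tumours, Nfkbia was at -0.45, Nfkb1 at -0.13 and Rela at -0.23 under quantile normalization, and Nfkb1 at -0.28 and Rela at -0.39 with summed reads. Of the uncalled differences, 113 values changed sign, and 1 of those was called in the new direction, Nfkb1 in LP at -0.43 with summed reads. Genes called in tumour against LP monocytes were 0 under quantile normalization, 0 with only the groups compared, 0 with summed reads, 2 by voom and 0 to 1 with 1 library left out; in MHCIIhi macrophages 3 to 6 with 1 left out. For MHCIIlow against MHCIIhi macrophages the fixed replicate block gave 2 in LP and 1 in tumours, where only the groups compared gave 0 and leaving 1 out 1 to 2. MHCIIhi macrophages against monocytes in LP had 1 under quantile normalization, by voom, with the fixed replicate block and with summed reads, and 2 with only the groups compared. MHCIIlow macrophages against monocytes in LP had 2 with only the groups compared or summed reads and 2 to 5 with 1 left out. Neutrophils against monocytes in LP had 3 under quantile normalization. For the difference in tumour effect, neutrophils minus monocytes had 1 under quantile normalization, 2 with only the groups compared and 1 to 4 with 1 left out, and neutrophils minus macrophages 4 under quantile normalization. The random replicate block moved no count by over 1.5 times. The fixed one was fitted only for comparisons within a tissue, where it moved no other count by that much. The causes were not tested. Each of the 10 genes had at least 1349 reads in every library, and the effect of depth on the calls was not tested.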
